A study of Mus musculus with 3 samples.

Results

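The autophagy machinery described here is a set of 40 genes, taken by exact symbol from the authors' deposited table and sorted by step: 5 of the initiation kinase complex, 6 of the class III phosphatidylinositol 3-kinase complexes, 6 of membrane supply and lipid transfer, 10 of the conjugation system, 5 of the ATG8 family, 6 cargo receptors and 2 large adaptors and tethers. All 40 had a value, among 11886 genes in all. They were chosen by function and by symbol, not by a threshold on any value. RNA was sequenced from 3 groups that share the same cells, mT3-2D-GFP, a single mouse KPC line (from a pancreatic tumour of a genetically engineered model, C57BL/6 in origin) that carries green fluorescent protein. The groups are GFP+ cells sorted from tumours grown in immunodeficient B6.CB17-Prkdcscid/SzJ (SCID) mice, which have no working T and B cells but keep macrophages and other innate cells, GFP+ cells sorted from tumours grown in immunocompetent C57BL/6 (WT) mice, and the line kept in culture with fetal bovine serum. The SCID library pools equal RNA from 5 tumours and the WT library equal RNA from 6, and each group has this 1 library. The sources used here do not give the age and sex of the mice or the site of growth.

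Autophagy encloses cytoplasm in a membrane that closes and fuses with a lysosome. The ULK kinase complex starts the process under the control of mTORC1 and AMPK, a lipid kinase complex marks the growing membrane, lipid carriers feed it, and a ubiquitin-like conjugation system attaches ATG8 proteins to it, to which cargo receptors bind. Pancreatic ductal tumours are known for a high basal rate of autophagy, and the receptor NBR1 is known in such tumours for carrying MHC class I to lysosomes.

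All values are taken from the authors' deposited table and are log2 fold changes between 2 libraries, as the mean over the transcripts of a gene. SCID cells against the line is given first, WT cells against the line second, and the host comparison is SCID minus WT. With 1 library per group there is no spread between animals, no difference has a replicate check and no test was made. A gene is called here at 2-fold or more (log2 of 1), with 1.5-fold as a lower threshold. In RNA from a mixture of cells, fewer cells of a type and less RNA per cell cannot be told apart, and growth in a tumour, dissociation and sorting all separate the tumour cells from the line and cannot be told apart either.

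In tumour-grown cells of either host, the RNA of most of these genes lay above the cultured line by a small amount, and no member lay below it by 1.5-fold. The median of the 40 members was 0.18 in SCID cells and 0.23 in WT cells against the line, where the medians of all genes were -0.02 and -0.01. Members above 0 numbered 29 of 40 (72.5%) in SCID cells, where 48.3% of all genes were above 0. In WT cells they numbered 30 of 40 (75%), where 48.6% of all genes were. The quartiles of the members were -0.04 and 0.39 in SCID cells and 0.02 and 0.41 in WT cells. Quartiles of all genes were -0.30 and 0.28 in SCID cells and -0.29 and 0.27 in WT cells, so the upper quartiles stood 0.1 or more apart as well as the medians.

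The 2-fold call took 1 of 40 members (2.5%) in each comparison with the line, Calcoco1, which was higher in both. Over all genes, 3.65% were higher and 2.62% lower by 2-fold in SCID cells, and 4.12% were higher and 2.03% lower in WT cells, so the members' count at 2-fold is near the background. At 1.5-fold, 5 members (12.5%) were higher in SCID cells, where 11% of all genes were, and 3 members (7.5%) were higher in WT cells, where 11.3% of all genes were. No member was lower by 1.5-fold, where 9.43% of all genes were lower in SCID cells and 8.36% in WT cells. Among large values the members' shares on the higher side were thus close to those of all genes, and the lower side was empty. When a trend with transcript GC content and length was removed from all genes, the medians of the members were 0.09 in SCID cells and 0.15 in WT cells, against -0.02 and -0.01 over all genes, and members above 0 made up 65% and 70%.

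**Figure D1:**
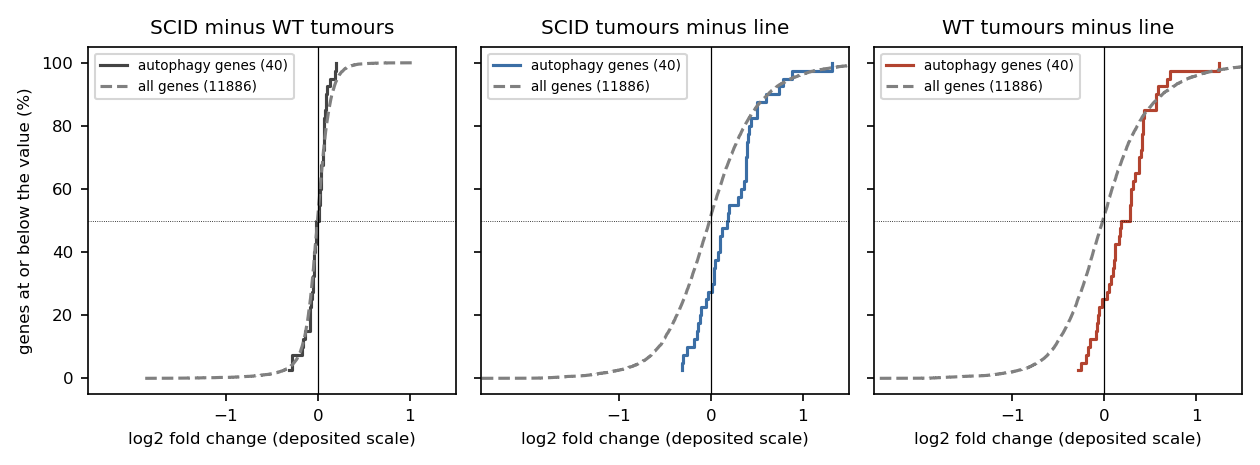
Cumulative share of genes (percent, vertical axis) by log2 fold change (horizontal axis) for the 40 members and for all 11886 genes, with 1 panel per comparison. Against the line the curve of the members lies right of that of all genes around its middle (medians of 0.18 in SCID cells and 0.23 in WT cells, against -0.02 and -0.01) and starts only at -0.32 and -0.29, while for SCID minus WT both curves cross 50% near 0.

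The 5 members past 1.5-fold in SCID cells came from 5 different steps. Calcoco1, a receptor that brings endoplasmic reticulum and Golgi fragments to autophagosomes, was at 1.32 in SCID cells (2.49-fold) and 1.25 in WT cells (2.38-fold), at or above 98.4% and 97.7% of all genes, and it kept 1.30 and 1.19 after the GC and length trend was removed. Atg14, the subunit that brings the lipid kinase to sites of autophagosome formation, was at 0.88 (1.84-fold) and 0.69 (1.61-fold). Map1lc3a, an ATG8 protein, was at 0.74 (1.66-fold) and 0.72 (1.64-fold). The initiating kinase Ulk1, at 0.60 (1.51-fold) and 0.57 (1.48-fold), and the endoplasmic reticulum scramblase Vmp1, at 0.78 and 0.58, passed 1.5-fold in SCID cells but not in WT cells, where they lay just under the threshold. With the GC and length trend removed, 3 members passed 1.5-fold in SCID cells (Atg14, Map1lc3a and Calcoco1) and Ulk1 and Vmp1 did not. Over all genes, 1238 of 11654 were higher by 1.5-fold in SCID cells in that setting. That setting also leaves out a transcript of Ulk1 and the higher transcript of Vmp1, which have no GC value. With coding transcripts only, Map1lc3a was under the threshold in both hosts, at 0.56 and 0.54, which left 4 members past it in SCID cells and 2 in WT cells. The share of all genes past it with coding transcripts only was not counted.

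The values are ratios of RNA and do not measure transcription from a given start. Stretches of 250 bases upstream of the transcription start are shown for genes high in the list or with starts that differ in value. They are from RefSeq, build GRCm38.p6, written 5′ to 3′ on the strand of the gene. The first is that of Calcoco1 (chr15:102722179-102722428, minus strand, 57.6% GC), whose single transcript NM_026192 runs from 102706777 to 102722178 on chromosome 15, and the second is that of Ulk1 (chr5:110810082-110810331, minus strand, 67.2% GC). Capitals are used only for a match to one of 4 motifs described further on, and neither of these stretches holds one.
Calcoco1: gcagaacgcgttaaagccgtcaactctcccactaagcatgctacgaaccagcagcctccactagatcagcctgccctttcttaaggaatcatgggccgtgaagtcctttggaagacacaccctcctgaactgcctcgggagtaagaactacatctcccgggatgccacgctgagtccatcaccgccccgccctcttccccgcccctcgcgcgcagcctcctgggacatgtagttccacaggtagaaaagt
Ulk1: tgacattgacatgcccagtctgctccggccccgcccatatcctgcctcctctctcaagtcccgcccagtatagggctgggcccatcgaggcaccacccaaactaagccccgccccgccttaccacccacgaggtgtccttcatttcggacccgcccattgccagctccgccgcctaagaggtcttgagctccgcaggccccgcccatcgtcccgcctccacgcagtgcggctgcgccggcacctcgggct

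Among the initiation genes, all 5 members lay above 0 in both comparisons with the line, with medians of 0.38 in SCID cells and 0.38 in WT cells. Ulk2, the close relative of Ulk1, was at 0.40 and 0.43. Of the scaffold subunits that hold the kinase, Rb1cc1 (FIP200) was at 0.38 and 0.28, and Atg13 was at 0.33 and 0.38. Atg101, which stabilises Atg13, was at 0.08 and 0.03. With the GC and length trend removed, which leaves out 1 of the 2 Ulk1 transcripts, Ulk1 was at 0.33 in SCID cells and 0.19 in WT cells, below Ulk2 at 0.34 and 0.38.

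Atg14 stood apart in the class III lipid kinase complexes, whose medians were 0.11 in SCID cells and 0.22 in WT cells, with 4 of 6 members above 0 in each. The catalytic subunit Pik3c3 (VPS34) was at 0.29 and 0.31, and its regulatory partner Pik3r4 (VPS15) was at 0.19 and 0.28. Becn1 (Beclin 1), the core regulatory subunit, was at -0.11 and -0.05. Uvrag, which takes the place of Atg14 in the endosomal form of the complex, was at -0.15 in SCID cells and 0.16 in WT cells. Atg14 and Uvrag, which define the autophagic and the endosomal form, thus lay on opposite sides of 0 in SCID cells and were both above 0 in WT cells. Ambra1, a Beclin 1 partner, was at 0.03 and -0.03.

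In the membrane and lipid group, 5 of 6 members were above 0 in SCID cells and 6 of 6 in WT cells, with medians of 0.29 and 0.29. Wipi1, which binds the lipid made by VPS34, was at 0.43 and 0.41, and its relative Wipi2 was at 0.18 and 0.17. Of the lipid carriers, Atg2a was at 0.39 and 0.56, and Atg2b was at 0.18 and 0.05. Atg2a was at 0.06 and 0.17 once the GC and length trend was removed. In that setting 5 of 6 members were above 0 in SCID cells and 4 of 6 in WT cells. Atg9a, the transmembrane scramblase of the vesicles that seed the membrane, was at -0.03 and 0.11.

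The conjugation enzymes were the group nearest to 0, with 5 of 10 members above 0 in each comparison and medians of -0.05 in SCID cells and 0.02 in WT cells. Atg12, the ubiquitin-like protein, had the highest value in SCID cells, at 0.38, and was at 0.29 in WT cells. Its conjugation partner Atg5 had the lowest of all 40 members, at -0.32 (0.802-fold) and -0.29 (0.820-fold). Atg16l1, which joins the Atg12 and Atg5 conjugate and sets where ATG8 proteins are attached, was at 0.12 and 0.19. Thus the 3 parts of that complex spread over both sides of 0.

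The activating and carrier enzymes of the same step had small values. Atg7, the E1-like enzyme, was at 0.04 in SCID cells and 0.12 in WT cells. Atg10, the carrier of ATG12, was at 0.01 and -0.06. Atg3, the carrier of ATG8 proteins, was at -0.18 and 0.10. Of the proteases that prime and release ATG8 proteins, Atg4b was at -0.12 and -0.08 and Atg4d was at -0.26 and -0.19, while Atg4c was at 0.10 in SCID cells and 0.38 in WT cells. The row named Atg4a, at -0.14 and -0.18, is uncertain. It lies on chromosome 3 (103643953 to 103646068), which is where RefSeq places the pseudogene Atg4a-ps, and RefSeq has Atg4a itself on chromosome X (140953845 to 141164194).

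The ATG8 proteins that those enzymes act on were above the line in 4 of 5 cases in both hosts, with medians of 0.36 in SCID cells and 0.29 in WT cells. Of the LC3 branch, Map1lc3b was at 0.50 and 0.43, below Map1lc3a. The coding transcript of Map1lc3a (NM_025735) was at 0.56 and 0.54 and its non-coding one (NR_046364) at 0.92 and 0.89, so the mean given above is raised by the non-coding form. In the GABARAP branch the values were smaller: Gabarapl1 was at 0.36 and 0.29, Gabarap was at 0.10 and 0.08, and Gabarapl2 was at -0.06 and -0.09. No LC3 gene overlapped in value with a GABARAP gene in either comparison, but the nearest, Map1lc3b and Gabarapl1, were not far apart. They lay closer together than the SD between transcripts of 1 gene over all genes (0.33 in SCID cells and 0.31 in WT cells). The branches hold few genes, no background was counted, and a difference between the branches was not tested.

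Cargo receptors had the widest spread of the 7 groups (SD over genes of 0.605 in SCID cells and 0.536 in WT cells), with medians of 0.40 in SCID cells and 0.37 in WT cells and 4 of 6 members above 0. Sqstm1 (p62), the receptor for ubiquitin-tagged aggregates, was at 0.50 and 0.40, and Nbr1, a related receptor, was at 0.38 and 0.43. Tax1bp1, a ubiquitin-binding relative of Calcoco1, was at 0.41 and 0.34, but at -0.07 and -0.21 as the median over its transcripts. With the GC and length trend removed, which leaves out its 1 high transcript, 3 of 6 receptors were above 0 in each host. Optn (optineurin), which acts on damaged mitochondria and bacteria, was at -0.32 and -0.16. Fundc1, a receptor in the outer mitochondrial membrane, was at -0.31 and -0.25. Optn and Fundc1 were the 2 receptors below 0 in each host. Mitophagy genes outside the set, given further on, lay on both sides of 0. The receptors as a group ran from -0.32 to 1.32 in SCID cells and from -0.25 to 1.25 in WT cells. Among the large adaptors, Wdfy3 (ALFY), which links aggregates to the membrane, was at 0.39 and 0.41 but at 0.04 and 0.05 without the GC and length trend, and Epg5, a tether for fusion with lysosomes, was at 0.03 and 0.12.

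**Figure D2:**
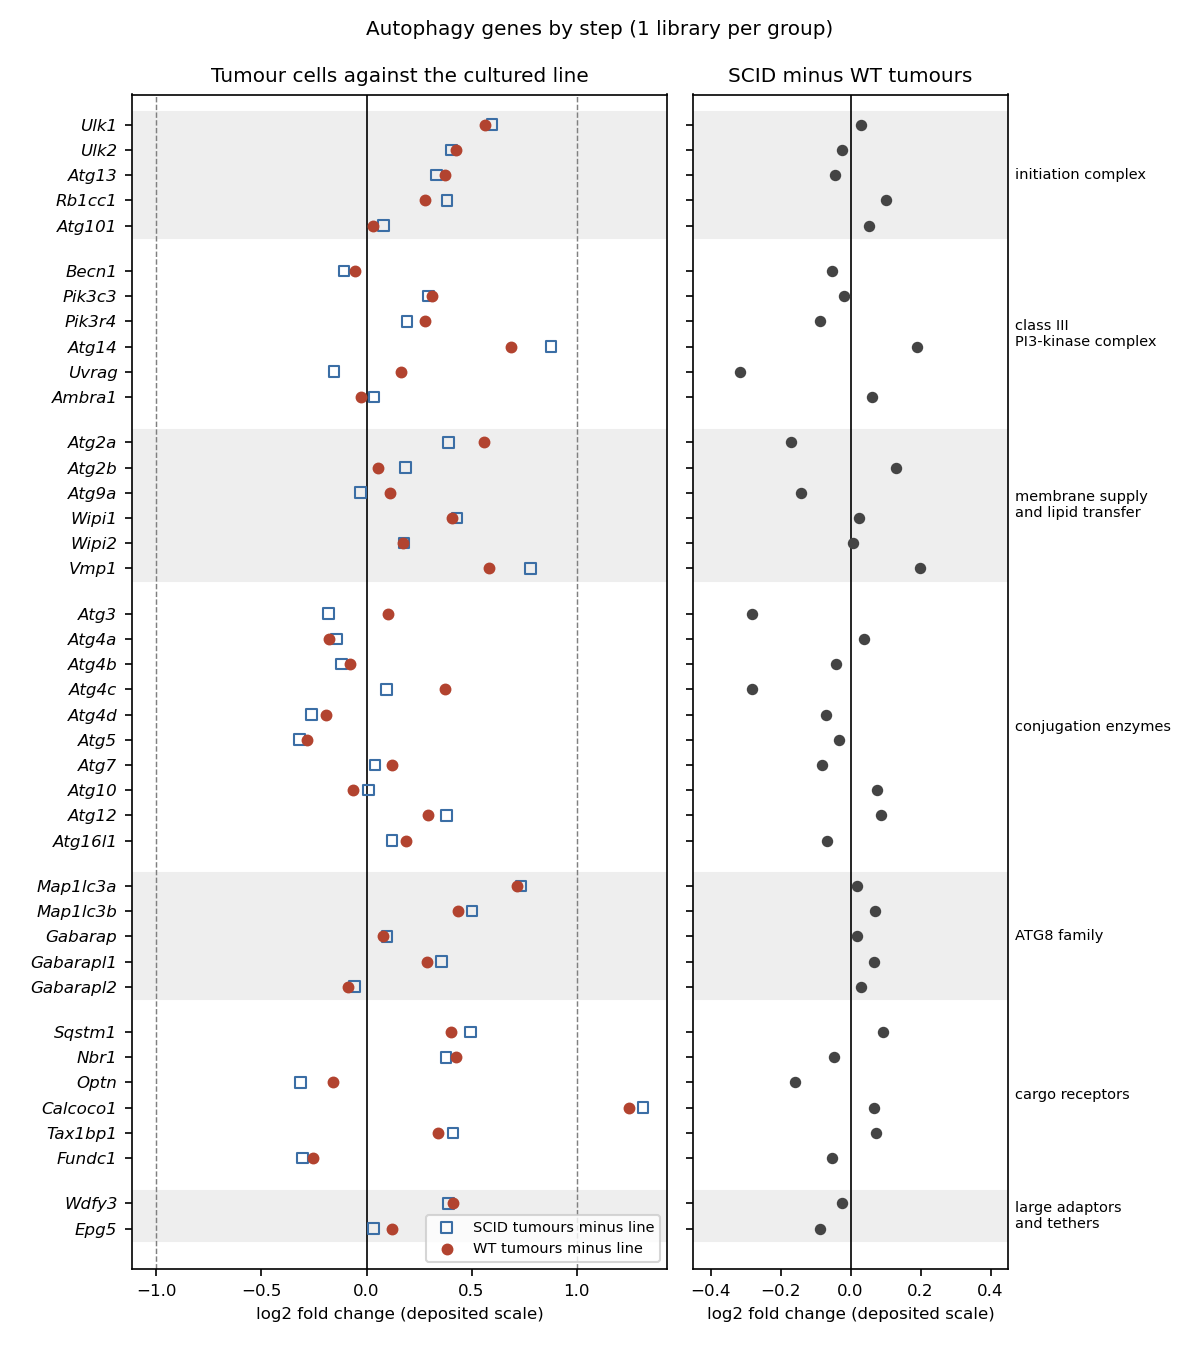
Log2 fold change of each of the 40 members (horizontal axis) by gene, grouped by step, for SCID cells and WT cells against the cultured line, with SCID minus WT in a panel of its own. Calcoco1 is the 1 gene past the 2-fold line in both hosts (1.32 and 1.25), the conjugation enzymes lie on both sides of 0, and every SCID minus WT value lies between -0.32 and 0.20.

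Between the hosts, no member differed by 1.5-fold and the median was -0.01, with 20 members above 0 and 20 below. Over all genes, 0.0168% were higher and 0.303% lower by 2-fold in SCID cells than in WT cells, and 0.177% were higher and 1.1% lower by 1.5-fold. Values within 0.1 of 0 made up 30 of 40 members, where 60.5% of all genes were that close. Both comparisons with the line use the same culture library, so their likeness is in part shared by construction, and SCID minus WT is their difference.

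The lowest SCID minus WT values were those of Uvrag (-0.32), Atg3 (-0.28) and Atg4c (-0.28), and the highest were those of Vmp1 (0.20) and Atg14 (0.19). These 3 lowest members are the ones whose difference is as large as the SD between transcripts of 1 gene (0.22 over all genes), which 10.9% of all genes reached. That SD describes transcripts and not animals. Of 40 members, 27 were above the line in both hosts, 8 were below it in both, and 5 lay on opposite sides of 0. These 3 counts were not made over all genes, so they have no background here. In SCID minus WT, 48.5% of all genes were above 0, as were 3 of 10 conjugation genes and 5 of 5 ATG8 genes, the ATG8 genes at 0.02 to 0.07. With the GC and length trend removed these counts were 1 of 10 (Atg12) and 4 of 5, with Gabarapl2 at -0.01. Uvrag kept -0.30, Atg3 -0.30 and Atg4c -0.33 with the GC and length trend removed. Vmp1 was at -0.02 there, but its higher transcript has no GC value and drops out, so this is no effect of the trend alone.

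Markers of host cells were mostly above the line in the tumour cells, and the macrophage markers and the fibroblast marker also differed between the hosts, in opposite directions. Of 11 macrophage markers, 4 had values (Cd68, Mrc1, Cd14 and Apoe), and they were at -1.75 to -0.80 in SCID minus WT, at -0.06 to 1.02 in SCID cells against the line and at 0.77 to 2.77 in WT cells against the line. Of 6 endothelial markers, 3 had values (Kdr, Flt1 and Eng), at 0.80 to 1.63 in SCID cells, 0.93 to 1.66 in WT cells and -0.29 to 0.19 in SCID minus WT. The 1 measured fibroblast marker of 8, Col1a1, was at 2.61 and 1.90, with 0.71 in SCID minus WT. Of 7 T cell markers, 2 had values, at 0.10 to 0.36 and 0.09 to 0.35, and both were at 0.01 in SCID minus WT. All 8 ductal epithelial markers had values, at -1.18 to 1.28 in SCID cells and -0.99 to 1.59 in WT cells. In SCID minus WT these 8 were at -0.34 to 0.17, with 1 above 0, where 48.5% of all genes were. The table holds ratios and no levels, so neither a summed marker level nor a marker at 0 can be read from it, and the part of host cells in the autophagy values was not tested.

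The mean over transcripts hid a spread within a few members. The 40 members had 66 transcripts, with 25 members at 1 transcript and 15 at 2 or more. Of these 15 members, transcripts were over 0.5 apart in 4 in SCID cells and in 5 in WT cells against the line, and in 1 for SCID minus WT. Among the 3598 genes of all with 2 or more transcripts, 32% were that far apart in SCID cells, 28.8% in WT cells and 17.4% in SCID minus WT. Such a spread is thus common over all genes and not particular to the members. Only 3 members had transcripts with different starts in the deposited table, Tax1bp1, Vmp1 and Nbr1, and in each the transcripts of the later start were higher than those of the first in both comparisons with the line. How often a later start is the higher one over all genes was not counted, so this pattern has no background here. How reads shared by isoforms were divided is not given in the sources used here, which limits every transcript value.

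Tax1bp1 had the widest range of all members, 1.67 in SCID cells and 1.67 in WT cells. Its transcripts from the first start, NM_025816 and NM_001355595, were at -0.07 and -0.18 in SCID cells and at -0.21 and -0.22 in WT cells. NM_001355596, whose start lies 436 bases downstream, was at 1.49 in SCID cells and 1.45 in WT cells. The value above 0 for the gene thus rested on a single isoform, and the median over its transcripts was -0.07 and -0.21. With the GC and length trend removed, for which that isoform had no sequence, the gene was at -0.06 and -0.12. The 250 bases before each start are on chromosome 6, plus strand, the first at chr6:52713479-52713728 (50% GC) and the downstream one at chr6:52713915-52714164 (70.8% GC), and they are shown because these starts differ in value; capitals mark a TGACNNNGC match.
Tax1bp1 first start: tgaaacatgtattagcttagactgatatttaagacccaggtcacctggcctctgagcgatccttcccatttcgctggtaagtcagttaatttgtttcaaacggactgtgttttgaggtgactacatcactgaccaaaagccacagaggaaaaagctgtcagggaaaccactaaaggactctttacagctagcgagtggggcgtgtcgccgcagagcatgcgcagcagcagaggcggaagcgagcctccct
Tax1bp1 downstream start: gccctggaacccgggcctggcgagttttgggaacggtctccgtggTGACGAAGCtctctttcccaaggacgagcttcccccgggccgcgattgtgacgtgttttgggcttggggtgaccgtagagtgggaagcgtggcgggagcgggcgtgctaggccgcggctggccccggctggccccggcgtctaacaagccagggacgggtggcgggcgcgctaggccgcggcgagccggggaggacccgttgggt

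Vmp1 had the same form. NM_029478, from the first start at position 86684000 of chromosome 11, was at 0.19 in SCID cells and 0.15 in WT cells. NM_001356531, whose start in the deposited table is 12725 bases downstream at 86671275, was at 1.37 and 1.01, with a SCID minus WT value of 0.36 where the other had 0.03. Most of the value of Vmp1, and of its host difference, was therefore in the transcript with the later start. RefSeq has a start 94 bases downstream of it, and the 250 bases before that start (chr11:86671182-86671431, minus strand, 40.8% GC) hold a match to the same motif on the other strand, in capitals. The last 94 of these bases lie within the deposited transcript. Matches also lie before the RefSeq starts at 86683836 and 86683523, which are 164 and 477 bases from the first start. The motif is thus not particular to the later start of Vmp1, and the 250 bases before the downstream start of Nbr1 hold none.
Vmp1 downstream start: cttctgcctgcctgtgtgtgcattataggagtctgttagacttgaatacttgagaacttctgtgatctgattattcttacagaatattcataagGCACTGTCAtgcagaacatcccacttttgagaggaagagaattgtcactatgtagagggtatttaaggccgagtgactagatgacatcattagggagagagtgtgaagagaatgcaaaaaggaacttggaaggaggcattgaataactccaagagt

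For Nbr1, NM_001252220 from the first start at 101552107 was at -0.32 in SCID cells and 0.01 in WT cells. The 3 transcripts that start 547 bases downstream were at 0.84, 0.63 and 0.36 in SCID cells, for NM_001252222, NM_008676 and NM_001252223, and at 0.70, 0.69 and 0.30 in WT cells. The single transcript of the first start was thus below the rest in both hosts. Atg9a, with 4 transcripts, had 1 (NM_001288613) at 0.79 and 0.52, and the others between -0.39 and -0.14 in SCID cells and between -0.10 and 0.06 in WT cells. Fundc1 was the fifth member with a wide range in WT cells, where NM_028058 was at -0.53 and NM_001313745 at 0.03, and they were closer in SCID cells, at -0.48 and -0.13.

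**Figure D3:**
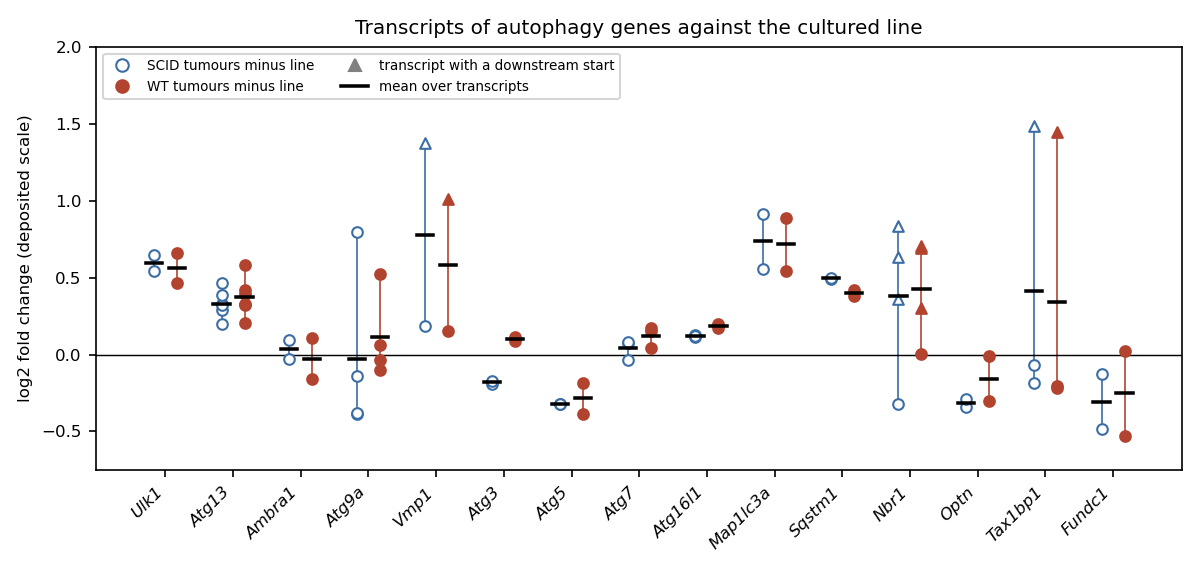
Log2 fold change of each transcript (vertical axis) of the 15 members with 2 or more transcripts (horizontal axis), for SCID cells and WT cells against the cultured line, with triangles for downstream starts and black bars for the mean. Tax1bp1, Vmp1, Nbr1 and Atg9a have transcripts over 0.5 apart in both hosts, with 1 transcript of Tax1bp1 at 1.49 and 1.45 while the other pair lies below 0.

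RefSeq promoter windows of 300 bases (250 before the start and 50 after it) were matched to 32 of 40 members, 38 windows in all, and searched on both strands for 4 motifs. The E-box CACGTG, the core of the element bound by TFEB and TFE3, was in 4 of 38 windows (10.5%), where 7.15% of all 32851 windows held it. The windows were those of Atg14, Atg3, Atg5 and Atg7, whose values against the line ranged from near the top of the set (Atg14) to its lowest (Atg5). The antioxidant response element TGACNNNGC, bound by NRF2, was in 7 of 38 (18.4%), where 12.4% of all windows held it, and the 7 belonged to Atg13, Map1lc3b, Tax1bp1, Ulk2 and Vmp1. The AP-1 motif TGANTCA was in none of the 38 and in 7.81% of all windows, and the forkhead motif GTAAACA in none and in 3.65%. A match of letters says nothing of binding.

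Atg14 is the 1 gene with an E-box among the 5 that passed 1.5-fold in SCID cells, and its site of 30 bases, with the E-box in capitals, lies at chr14:47568418-47568447 on the minus strand, over the start of the transcript.
Atg14 site: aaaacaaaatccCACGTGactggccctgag

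The regulators upstream of these steps had medians near 0. Of 24 genes of mTORC1 and AMPK signalling, 21 had values, at 0.01 in SCID cells and 0.02 in WT cells, with 11 of 21 above 0 in each. In this list 1 gene (4.76%) was higher by 2-fold in both hosts, Ddit4 (REDD1, a stress-induced inhibitor of mTORC1), at 1.60 and 1.501. Over all genes, 3.65% were higher by 2-fold in SCID cells and 4.12% in WT cells, so this share is near the background. Deptor, an mTOR-binding inhibitor, was lower by 2-fold in SCID cells (-1.01), as were 2.62% of all genes, and was at -0.71 in WT cells. Sesn3, which restrains mTORC1, was at 0.93 and 0.83. The AMPK subunits Prkab2 and Prkag2 lay on opposite sides of 0, the first at 0.90 and 0.74 and the other at -0.58 and -0.84.

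Of 11 transcription factors linked to autophagy and lysosome genes, 10 had values, with medians of 0.27 in SCID cells and 0.24 in WT cells and 6 of 10 above 0. Foxo3 was at 1.02 in SCID cells, higher by 2-fold as were 3.65% of all genes, and at 0.94 in WT cells. The stress factor Ddit3 (CHOP) was at 0.97 and 0.84. The lysosomal regulator Tfeb was at -0.35 and -0.05, and its relative Tfe3 was at 0.20 and 0.23. Nfe2l2 (NRF2), which binds the antioxidant element, was at 0.38 and 0.52.

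Further genes outside the set of 40 were described by list. Of 13 other core genes, 12 were measured, with medians of 0.14 and 0.05 and 8 of 12 above 0 in each host. Trp53inp1, a p53 target that binds ATG8 proteins, was the 1 gene (8.33%) higher by 2-fold in both hosts, at 1.88 and 1.55. Over all genes the share higher by 2-fold was 3.65% in SCID cells and 4.12% in WT cells. Trp53inp2, a relative of Trp53inp1, was at 0.67 and 0.73. Of 12 mitophagy and ER-phagy genes, 11 were measured, with medians of 0.28 and 0.24 and with 7 above 0 in SCID cells and 8 in WT cells. The hypoxia-induced mitophagy receptor Bnip3 was at 1.58 and 1.33, its relative Bnip3l at 0.73 and 0.45, and the kinase Pink1 at 0.90 and 0.91, while Phb2, an inner membrane receptor, was at -0.71 and -0.67. Mitophagy genes therefore lay on both sides of 0.

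The 12 genes of autophagosome fusion with lysosomes were all measured and stayed near 0, with medians of -0.03 in SCID cells and 0.04 in WT cells. None passed 1.5-fold, which 11% of all genes did on the higher and 9.43% on the lower side in SCID cells, and 11.3% and 8.36% in WT cells. In SCID minus WT, 2 of these 12 (16.7%) were above 0, where 48.5% of all genes were, and their median was -0.09. The lowest was Vps33a, a subunit of the HOPS tether, at -0.24. Of the 3 BCL2 relatives that bind Beclin 1, Bcl2 was at 0.66 and 0.67, Mcl1 at 0.43 and 0.57, and Bcl2l1 at -0.41 and -0.37.

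**Figure D4:**
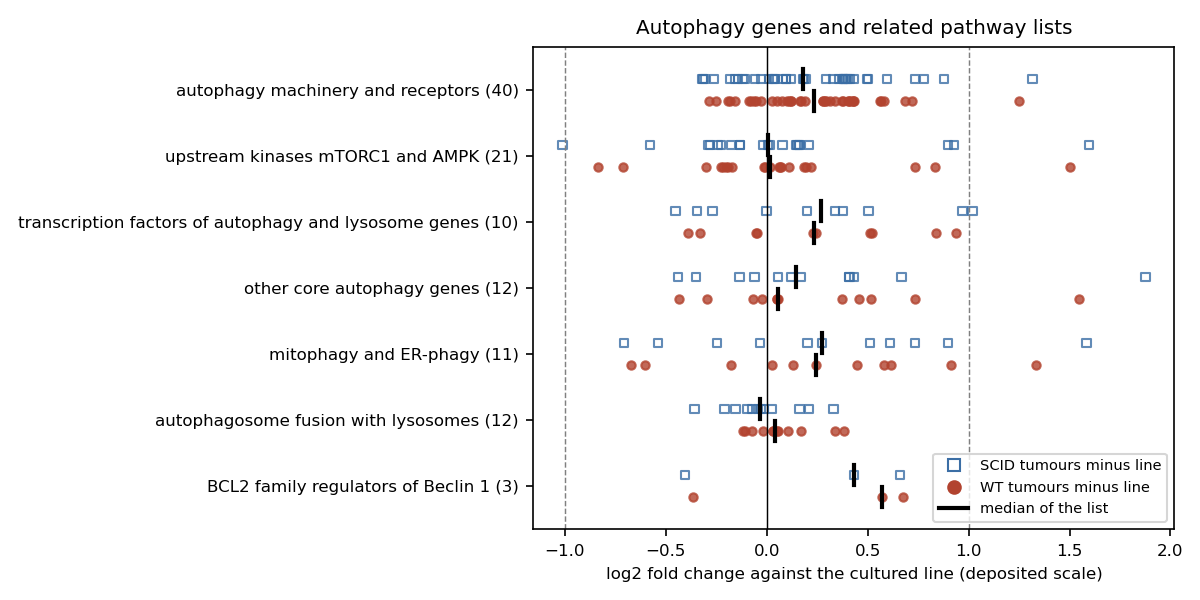
Log2 fold change against the cultured line of the genes in the 40-gene set and in the 6 related lists (1 point per gene, bar at the median), for SCID cells and WT cells. The set of 40 has medians of 0.18 and 0.23, the mTORC1 and AMPK list lies around 0 (0.01 and 0.02) with Ddit4 far above, and none of the 12 fusion genes reaches 1.5-fold.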

How the data were processed

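RNA of 3 groups, 1 library each, was measured by stranded poly(A) RNA-seq with paired reads of 75 bases, with a mean depth of 40M reads stated in the labels. Depth per library is unknown here, because the table holds no counts. The authors deposited 1 table of log2 fold changes for 17910 RefSeq transcripts; its header names no log base, and log2 was read from the listing of DESeq2 1.20.0 in the submitters' processing notes. BWA, Partek, R 3.5.1 and mm9 stand in the same notes, with no role or order. The sources used here give neither the normalization nor any shrinkage or filter, so a fold is one on the deposited scale. In all 17910 transcripts the column naming only SCID was, within 1e-12, the difference of the other pair, and it was read as SCID minus WT. Coordinates in the table match GRCm38 and not the mm9 named: 39 of 40 members lie on their RefSeq chromosome and 19 share its start.

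A gene's value is the mean over its transcripts (pandas 2.3.3, numpy 2.4.6). The deposited values allow no count model and no test. The planned levels per library were not what the table held. All 40 members are named; of related lists, genes past 2-fold or farthest from 0 are named, at most 4 per list and comparison, and Tfe3, Nfe2l2, Trp53inp2 and others beyond that were chosen after their values were seen. Members and lists were chosen with earlier results of these data known. Alternatives were the median, farthest or nearest transcript, coding transcripts, genes with 1 transcript, centring, a 1.5-fold threshold, leaving out the farthest member or Atg4a, and removal of a GC and length trend (GENCODE sequences for 93.2% of transcripts and 57 of 66 member transcripts). Scripts were tested on simulated data.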

Additional observations from a re-analysis of the deposited data

Results flagged for a closer look

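For 5 members the SCID and WT cells lay on opposite sides of the cultured line, and none of these differences was tested, since each group is 1 library. The share of all genes on opposite sides was not counted, so whether 5 members is many or few cannot be read here. Uvrag, the endosomal subunit of the VPS34 complex, was at -0.15 in SCID cells and 0.16 in WT cells, a difference of -0.317. Atg3, the carrier of ATG8 proteins, was at -0.18 and 0.10, a difference of -0.282. Atg9a was at -0.03 and 0.11, a difference of -0.141, with transcripts that lay on both sides of 0. Ambra1, at 0.03 and -0.03, differed by 0.0606, and Atg10, at 0.01 and -0.06, differed by 0.0753; both lie within 0.1 of 0 in all 3 comparisons. The 2 transcripts of Ambra1 went opposite ways between the hosts, at 0.26 and -0.13. With the GC and length trend removed, Uvrag and Atg3 still lay on opposite sides, while Atg9a (-0.15 and -0.08), Ambra1 (-0.10 and -0.21) and Atg10 (0.03 and 0.07) did not. Macrophage markers were at -1.75 to -0.80 in the same host comparison, and their part in these values was not tested.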

How the results depend on the processing

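No paired analysis was possible because each group has 1 library and no replicate number. The count of members higher by 2-fold than the line, 1 in each host, was 0 without the farthest member (Calcoco1), 3 with the farthest transcript of each gene in SCID cells and 3 in WT cells, and 5 and 3 at 1.5-fold. At 1.5-fold, 11% and 11.3% of all genes were higher. The farthest transcript takes the value farthest from 0 in every gene, and the share of all genes past 2-fold under it was not counted. The median against the line, 0.18 in SCID cells, was 0.0881 with the GC and length trend removed and 0.105 with the transcript nearest to 0; in WT cells, 0.23 became 0.153 with the trend removed. The cause was not tested; transcripts with no GC value, among them the high ones of Tax1bp1 and Vmp1, drop out there. The SCID minus WT median stayed within 0.03 of 0: -0.00644 as reported, 0.00466 for the median transcript, 0.0195 for genes with 1 transcript, -0.00202 centred, -0.0238 with the trend removed, -0.0199 without Atg4a, -0.00111 for the nearest transcript and 0.00707 without the farthest member. Of 912 values of single genes under these alternatives, 887 moved by less than the SD between transcripts and 25 by more. Many of the 912 had no room to move, so 887 is no measure of robustness. Leaving out Atg4a (117 values) and keeping genes with 1 transcript (75) change no gene's value, and centring (120) shifts all genes alike. A choice of transcript cannot move members with 1 transcript. The 25 came from trend removal (9) and from the farthest (8), nearest (6) and median (2) transcript. Calcoco1, called in both hosts and with 1 transcript, kept its sign. Uncalled members changed side: with the trend removed, 5 did in SCID cells and 6 in WT cells, Tax1bp1 among them at -0.06 and -0.12, and Nbr1 was at -0.32 in SCID cells with its nearest transcript. Wdfy3 (0.04 and 0.05), Atg2a (0.17 in WT cells) and Ulk1 (0.19 in WT cells) lost most of their value with the trend removed. The nearest transcript and leaving out Atg4a were chosen after the data were seen. Without counts, the precision of low genes is unknown.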

Other observations

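Of the 40 members, 8 (20%) start head to head with another gene within 1000 bases, where 1956 of 11886 genes (16.5%) do. On chromosome 11, the first start of Nbr1 lies 152 bases from that of Brca1, a DNA repair gene. The 1 Nbr1 transcript from that start, NM_001252220, was at -0.32 in SCID cells and 0.01 in WT cells, and Brca1 was at -0.93 and -0.77. The first start of Vmp1, whose transcript NM_029478 was at 0.19 and 0.15, lies 17 bases from that of Ptrh2 (-0.13 and 0.04). Atg13 (0.33 and 0.38) and Harbi1 (0.45 and 0.49), 260 bases apart, were both above 0, as were Atg2b (0.18 and 0.05) and Gskip (0.04 and 0.01), 111 bases apart. Atg4b (-0.12 and -0.08) and Thap4 (-0.11 and -0.10), 195 bases apart, were both below 0. Atg9a (-0.03 and 0.11) and Ankzf1 (0.43 and 0.25) lie 150 bases apart, Atg3 (-0.18 and 0.10) and Slc35a5 (0.15 and 0.07) 156, and Atg12 (0.38 and 0.29) and Ap3s1 (0.04 and -0.10) 297. Chromosome 11 holds 7 members (17.5%), where 8.14% of all genes lie on it. Atg4d shares 1381 bases with Kri1 on the opposite strand and Atg16l1 shares 248 bases with Scarna6 on the same strand, and since the counting rule is not given in the sources used here, reads of these pairs may have been shared.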
